A study of Saccharomyces cerevisiae with 6 samples.

Results

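The messenger RNA of 10 enzymes that remove superoxide and peroxides in budding yeast was followed. The genes are the catalase genes CTT1 and CTA1, the superoxide dismutase genes SOD1 and SOD2, and the peroxidase genes CCP1, GPX1, GPX2, PRX1, TSA1 and TSA2. They were chosen by name, with earlier results of these data known. All 10 were among the 5449 S. cerevisiae genes tested on the array, each with 1 probe set. Samples were 3 of FY4, the wild-type reference strain, and 3 of a strain in which BAS1 was deleted. The product of BAS1 is a transcriptional activator of the Myb family, whose known targets serve purine and histidine synthesis. Both strains grew exponentially in batch in minimal medium with glucose at 30°C and 300 rpm, with no further treatment named, and total RNA was hybridised to Affymetrix arrays. The labels name the strain FY4 for the wild-type samples, give no parent strain or marker for the deletion samples, and do not say whether replicates were separate cultures or clones. The p-values therefore measure only the spread between these samples.

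Superoxide dismutases convert superoxide, a by-product of respiration, to hydrogen peroxide and oxygen. Catalases then split hydrogen peroxide into water and oxygen with a heme group. Thiol peroxidases reduce it with a reactive cysteine that the thioredoxin or glutathione systems regenerate at the cost of NADPH, and cytochrome c peroxidase takes its electrons from cytochrome c. In yeast the enzymes are spread over compartments. Ctt1, Sod1, Tsa1 and Tsa2 are known as cytosolic, Sod2, Ccp1 and Prx1 as mitochondrial, and Cta1 as the peroxisomal catalase.

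Levels are given as log2 of the deposited intensity, with the SD over 3 arrays. Strain differences are log2 values, deletion minus wild type, with limma's moderated standard error. A gene was called at a Benjamini-Hochberg adjusted p under 0.05 over all 5449 genes. A probe set's level depends on its own probes, so levels of different genes are not set against each other. On a whole-culture sample, fewer cells of a kind and less RNA per cell cannot be told apart. The wild-type arrays read BAS1 at 11.09 ± 0.12 (SD, n = 3), and the deletion arrays read it under background, at 4.83 ± 0.06 (SD, n = 3), at least 29.1-fold lower. The background level came from probe sets whose annotated gene is not an S. cerevisiae gene. Their 95th percentile over all arrays, 6.23, was used, or that of the single array if higher. All 10 antioxidant genes lay above it in every array.

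Some features of the arrays moved with strain. The median over all genes of the log2 difference was 0.11, not 0, and it became -0.04 after each array was centred on its median. The median level of 16 probe sets for 18S and 25S ribosomal RNA lay between 13.5 and 13.7 for the wild-type samples, and between 10.02 and 11.03 for the deletion samples. The part of this shift in the results below was not tested. The 3′ minus 5′ difference of the ACT1 control probe sets, a measure of RNA integrity and labelling, ran from 0.21 to 0.24 in wild type and from 0.25 to 0.29 in the deletion strain. The 95th percentile of the background probe sets was 6.60, 6.22 and 6.51 in the wild-type arrays and 6.12, 5.83 and 5.73 in the deletion arrays. Poly-A spike controls divided the arrays otherwise, into 3 low arrays (wild-type replicates 1 and 2, deletion replicate 1) and 3 high arrays.

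Of the 10 antioxidant genes, 6 rose in the deletion strain, 2 fell and 2 did not pass the test. Over all tested genes 59.5% were called, 39.6% as higher and 19.8% as lower, so a call alone says little about any gene here. The split by direction turned over after array centring, to 27.2% higher and 33.1% lower, and after quantile normalization, to 24.9% and 35.5%. At least 2-fold rises were found in 4 of the 10, against 8.33% of all genes, and at least 2-fold falls in 0 of the 10, against 1.14%. The levels of both strains did not overlap for 9 of the 10, against 67.5% of all genes. The median log2 difference of the 10 genes was 0.90, beside 0.11 over all genes. The 10 genes were chosen with earlier results of these data known, so comparisons with all genes describe them and test no excess. The same 6 and 2 were counted after array centring, after quantile normalization and after cyclic loess, where the median of the 10 genes ran from 0.74 to 0.85. All 3 genes for mitochondrial enzymes rose. Of the 4 for cytosolic enzymes 2 rose and 2 did not pass the test, and the peroxisomal catalase gene fell. GPX1 and GPX2 were assigned to no compartment, and of these 2 genes 1 rose and 1 fell. The split by compartment depends on this assignment.

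**Figure D1:**
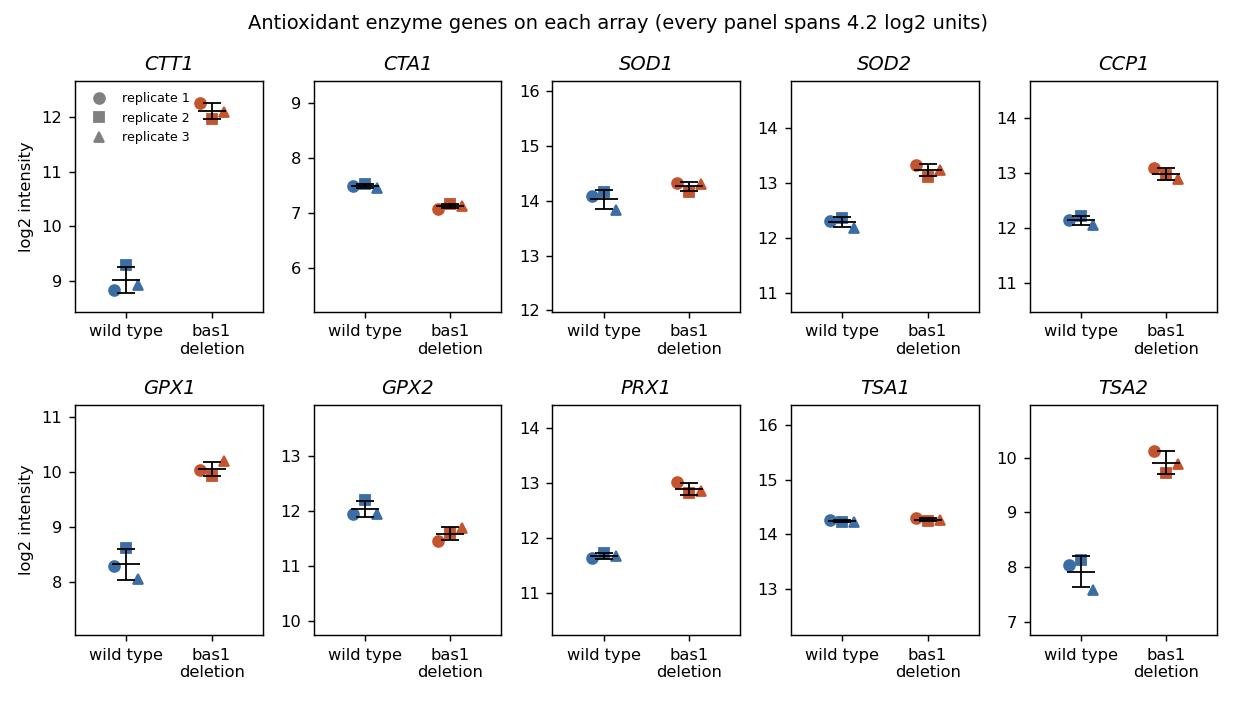
Log2 intensity of each antioxidant gene (vertical axes, each spanning the same number of log2 units) on the 3 wild-type arrays (blue) and the 3 deletion arrays (orange). Marker shape gives the replicate, and bars give the mean and SD over 3 arrays. CTT1, TSA2 and GPX1 show the widest gaps between strains, TSA1 overlaps, and CTA1 and GPX2 are lower in the deletion arrays.

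The 2 catalase genes moved in opposite directions. CTT1 (YGR088W), the cytosolic catalase gene known for its response to many stresses, read 8.85, 9.30 and 8.94 in the wild-type arrays and 12.25, 11.96 and 12.08 in the deletion arrays. The lowest deletion array was far above the highest wild-type array, and the distance between strains was several times the range within either. CTT1 rose 8.38-fold (log2 difference 3.07, SE 0.13, limma adjusted p = 1.2e-05), and 42 of all tested genes rose more. The level of CTA1 (YDR256C), the catalase gene known for its use during growth on fatty acids, was 7.48, 7.53 and 7.45 in wild type and 7.08, 7.16 and 7.13 in the deletion strain. These values are low on the array's scale, each strain's arrays lay within 0.08 of each other, and the strains did not overlap. The background percentile was lower in the deletion arrays too, and its part in the CTA1 difference was not tested. CTA1 fell 1.29-fold (log2 difference -0.36, SE 0.05, limma adjusted p = 9.2e-04). Its direction held under the other scalings but its size did not, at -0.52 after array centring, -0.63 after cyclic loess and -1.17 after quantile normalization.

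Between the dismutase genes, the mitochondrial form rose and the cytosolic form did not pass the test. SOD2 (YHR008C), for the manganese enzyme of the mitochondrial matrix, read 12.32, 12.37 and 12.18 in wild type and 13.34, 13.12 and 13.25 in the deletion strain. All deletion arrays were higher than all wild-type arrays. SOD2 rose 1.93-fold (log2 difference 0.95, SE 0.08, limma adjusted p = 1.3e-04). SOD1 (YJR104C), for the copper and zinc enzyme, read 14.09, 14.16 and 13.83 in wild type and 14.32, 14.16 and 14.30 in the deletion strain. The strains barely separated, since the lowest deletion array and the highest wild-type array both read 14.16 to 2 decimals, while wild-type replicate 3 lay apart below. The SOD1 log2 difference was 0.23 (SE 0.10, 95% interval -0.0040 to 0.47, limma adjusted p = 0.0813).

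The SOD1 result depended on which arrays were used. Low-spike arrays alone gave 0.20 and high-spike arrays alone 0.40, given as values only since each sets 2 arrays against 1. With spike level as a block it was 0.30 (limma adjusted p = 0.0162), and without wild-type replicate 2 it was 0.30 (limma adjusted p = 0.0498). Without wild-type replicate 3 it was 0.13 (limma adjusted p = 0.155), and after array centring 0.077 (limma adjusted p = 0.489). The SOD1 probe set is bright, as is that of TSA1, and differences near the top of the scale, where the highest value on any array was 15.16, can be understated.

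Both mitochondrial peroxidase genes rose. CCP1 (YKR066C), for the heme peroxidase of the intermembrane space, read 12.15, 12.21 and 12.05 in wild type and 13.10, 12.95 and 12.90 in the deletion strain. CCP1 rose 1.80-fold (log2 difference 0.85, SE 0.07, limma adjusted p = 1.6e-04). PRX1 (YBL064C), for the mitochondrial peroxiredoxin, went from 11.64, 11.74 and 11.67 in wild type to 13.03, 12.82 and 12.85 in the deletion strain. For both genes the strains were separated by more than the range within either strain. PRX1 rose 2.33-fold (log2 difference 1.22, SE 0.07, limma adjusted p = 2.8e-05). Low-spike and high-spike arrays alone gave 0.995 and 1.001 for SOD2, 0.92 and 0.88 for CCP1 and 1.34 and 1.17 for PRX1. They are given as values only, since each sets 2 arrays against 1.

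The cytosolic peroxiredoxins are encoded by the close paralogs TSA1 and TSA2, which read differently. TSA1 (YML028W), the main form in growing cells, stood at 14.26, 14.22 and 14.23 in wild type and at 14.30, 14.25 and 14.26 in the deletion strain. The strains overlapped, and the log2 difference of TSA1 was 0.03 (SE 0.04, 95% interval -0.07 to 0.13, limma adjusted p = 0.545). After array centring it was -0.12 (limma adjusted p = 0.0798), so its sign is not settled. TSA2 (YDR453C), the form known to be induced by stress, stood at 8.05, 8.13 and 7.60 in wild type and at 10.13, 9.72 and 9.88 in the deletion strain. The wild-type arrays of TSA2 varied more than those of TSA1, with replicate 3 lowest, and no array of one strain reached the other. TSA2 rose 3.96-fold (log2 difference 1.99, SE 0.17, limma adjusted p = 1.4e-04). The rise was smaller after the other scalings, at 1.83 after array centring, 1.65 after cyclic loess and 1.43 after quantile normalization. The names of all 10 probe sets end in _at with no further suffix, which in Affymetrix naming marks a set not designed to share transcripts. Cross-hybridisation between TSA1 and TSA2 was not tested.

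The glutathione peroxidase-like genes GPX1 and GPX2 went opposite ways. GPX1 (YKL026C), known to be induced by starvation, read 8.29, 8.62 and 8.06 in wild type and 10.04, 9.93 and 10.19 in the deletion strain. No arrays overlapped, and GPX1 rose 3.33-fold (log2 difference 1.73, SE 0.15, limma adjusted p = 1.6e-04). Its rise was 1.58 after array centring, 1.42 after cyclic loess and 1.27 after quantile normalization. GPX2 (YBR244W), known as a target of the oxidative stress factors Yap1 and Skn7, read 11.95, 12.20 and 11.95 in wild type and 11.46, 11.60 and 11.69 in the deletion strain. Every deletion array was lower than every wild-type array. GPX2 fell 1.37-fold (log2 difference -0.45, SE 0.10, limma adjusted p = 0.0073). Low-spike and high-spike arrays alone gave 1.59 and 2.01 for GPX1 and -0.62 and -0.30 for GPX2, each a value from 2 arrays against 1.

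**Figure D2:**
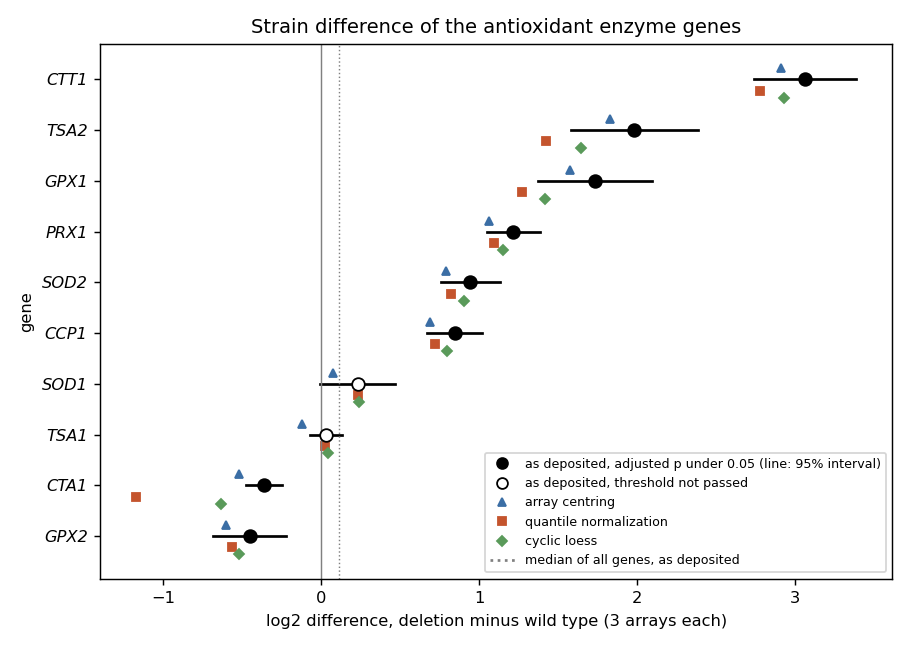
Strain difference of each antioxidant gene (horizontal axis, log2, deletion minus wild type, n = 3 arrays per strain). Circles with lines are limma estimates with 95% intervals on the deposited values, filled where the adjusted p was under 0.05, and small coloured markers are estimates after other scalings. CTT1 lies farthest to the right at 3.07, CTA1 moves to -1.17 after quantile normalization, and TSA1 lies on either side of 0.

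Exact two-sided permutation tests over the 6 arrays, taken gene by gene, gave p = 0.1 for 9 of the 10 genes and p = 0.3 for TSA1. The smallest p that 3 against 3 arrays allow is 0.1, so these tests alone cannot pass 0.05.

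Members of a class were then compared directly, as the log2 ratio of 2 genes within each array, which shows whether both changed by the same amount. For CTT1 over CTA1 the ratio ran from 1.36 to 1.77 in wild type and from 4.80 to 5.17 in the deletion strain. The change of CTT1 thus exceeded that of CTA1 by 3.43 ± 0.16 (SE, n = 3 per strain). For GPX1 over GPX2 the unequal change was 2.18 ± 0.12 (SE, n = 3 per strain), and for TSA1 over TSA2 it was -1.95 ± 0.20 (SE, n = 3 per strain). PRX1 changed by 1.19 ± 0.06 (SE, n = 3 per strain) more than TSA1, and SOD1 by -0.71 ± 0.05 (SE, n = 3 per strain) relative to SOD2. In each of the 5 pairs the ratios of both strains did not overlap. The exact two-sided permutation test gave p = 0.1 for each, the smallest possible, and an adjusted p of 0.1 over the 5 pairs.

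Within strains the genes tended to share their high and low arrays. Wild-type replicate 2 was the highest wild-type array for 9 of the 10 genes, all except TSA1, while it was the highest for 40.0% of all tested genes. Deletion replicate 1 was the highest deletion array for 7 of the 10, all except CTA1, GPX1 and GPX2, against 24.7% of all genes. Deletion replicate 2 was the lowest for 7 of the 10, and wild-type replicate 3 the lowest wild-type array for 6. The share of all genes was not counted for lowest arrays. Deletion replicate 2 was the highest deletion array for 46.6% of all genes. The range over 3 arrays was widest for GPX1 in wild type, at 0.56, followed by TSA2 at 0.53 and CTT1 at 0.45, and narrowest for TSA1 in both strains, at 0.04 and 0.05. The 10 genes share the same 3 arrays per strain, so these counts are a description of those arrays.

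**Figure D3:**
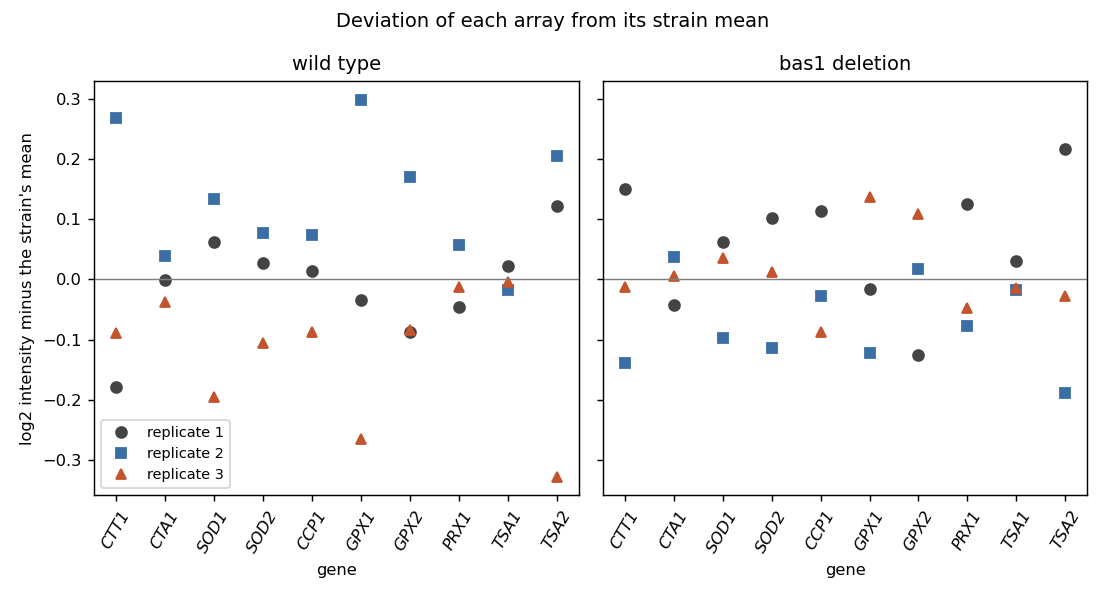
Deviation of each array from its strain's mean (vertical axis, log2) for each gene, with wild type on the left and the deletion strain on the right. Colour and shape give the replicate. Wild-type replicate 2 is the highest for 9 of 10 genes, and deletion replicate 1 for 7 of 10.

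The genes whose pattern over the 6 arrays lay nearest to that of CTT1 were XBP1, ATO2 and ALP1. Likeness was the Euclidean distance between log2 values after subtraction of each gene's wild-type mean. The distance was 0.19 for XBP1, a stress-induced transcriptional repressor gene, 0.35 for ATO2, and 0.44 for ALP1, a basic amino acid permease gene. Their log2 differences were 3.11, 2.98 and 2.97, with ATO2 and ALP1 at 2.39 and 2.38 after quantile normalization. Over 6 arrays in 2 groups this measure mostly finds genes with a strain difference of like size.

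Genes that supply or control these enzymes were examined in 7 lists, of which 75 of 76 genes were measured. In them 45 genes rose, 8 fell and 22 did not pass the test, beside 39.6% higher and 19.8% lower over all genes. The median log2 difference was 0.36. After array centring 35 rose and 15 fell, and after quantile normalization 40 rose and 17 fell. At least 2-fold rises numbered 17, beside 8.33% of all genes, and at least 2-fold falls 0. These lists too were chosen with earlier results of these data known, so the shares are a description only.

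The 3 other thiol peroxidase genes rose by small amounts. HYR1, for the peroxidase that senses hydrogen peroxide for Yap1, rose 1.43-fold (log2 difference 0.52, SE 0.11, limma adjusted p = 0.0067). DOT5, for a nuclear peroxiredoxin, and AHP1, for an alkyl hydroperoxide reductase, rose by 0.28 each (limma adjusted p = 0.0019 and 0.012). After array centring DOT5 and AHP1 stood at 0.12 each and no longer passed.

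Of 8 genes of the thioredoxin system 5 rose and none fell, and TRR1, for the cytosolic thioredoxin reductase, fell after each of the 3 other scalings. SRX1, for the sulfiredoxin that repairs overoxidised peroxiredoxins, rose 5.23-fold (log2 difference 2.39, SE 0.39). Of its 3 wild-type values 2 lay above background, and after quantile normalization the rise was 3.45-fold. Genes of the mitochondrial thioredoxin system rose as PRX1 did, TRX3 for the thioredoxin by 3.44-fold and TRR2 for its reductase by 1.56-fold. MXR2, for a methionine sulfoxide reductase of mitochondria, rose 1.89-fold (limma adjusted p = 0.0335, and 0.0487 to 0.0494 after the other scalings). MXR1, for another methionine sulfoxide reductase, rose 1.31-fold (limma adjusted p = 0.0090). The remaining 3 genes did not pass the test on the deposited values, with log2 differences of 0.01 for TRX1, 0.37 for TRX2 and -0.11 for TRR1.

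Of 16 glutathione and glutaredoxin genes 10 rose and 1 fell (9 and 2 after array centring). The fall was that of GSH2 (log2 difference -0.54, SE 0.06, limma adjusted p = 4.8e-04), while GSH1 rose by 0.51 (SE 0.05, limma adjusted p = 3.5e-04). GRX8 for a glutaredoxin rose 2.99-fold, and the glutathione transferase genes GTO1 and GTT2 rose 2.92-fold and 2.84-fold. GTO3, also for a glutathione transferase, lay at background in wild type as a mean, with 2 of its 3 arrays above it, and rose at least 2.59-fold on the deposited values, but 1.61-fold after quantile normalization. GRX8 varied widely between arrays, with an SD of 0.66 in wild type and 0.48 in the deletion strain.

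NADPH supply held 9 rises and 2 falls in 14 genes (7 and 2 after array centring). The 4 largest were rises in genes of the pentose phosphate pathway. NQM1, a paralog of the transaldolase gene TAL1, rose 11.1-fold (log2 difference 3.48, SE 0.12), and TKL2, for the minor transketolase, rose 9.39-fold (log2 difference 3.23, SE 0.12). GND2 for the minor 6-phosphogluconate dehydrogenase and SOL4 for a 6-phosphogluconolactonase rose 4.93-fold and 3.60-fold, with GND2 at 3.08-fold after quantile normalization. For the other paralog of each pair the log2 difference was 0.20 for TAL1, 0.12 for TKL1, 0.14 for GND1 and -0.14 for SOL3. Of these TAL1, GND1 and SOL3 passed the test (limma adjusted p = 0.012, 0.032 and 0.032) and TKL1 did not (limma adjusted p = 0.085). ZWF1, for the first enzyme of the pathway, differed by 0.14 (limma adjusted p = 0.142). The larger of the falls was that of ALD6, 1.51-fold (log2 difference -0.59, SE 0.06, limma adjusted p = 4.3e-04).

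Genes for the metals and heme that these enzymes carry held 5 rises and 3 falls in 14, or 4 and 7 after array centring or quantile normalization. SMF2, for a manganese transporter that supplies Sod2, fell (log2 difference -0.68, SE 0.05, limma adjusted p = 6.8e-05). HEM1, for the first enzyme of heme synthesis, rose (log2 difference 0.68, SE 0.05, limma adjusted p = 8.5e-05), and SMF1 for another manganese transporter rose 1.32-fold. HEM3 rose 1.39-fold, a call that ended after quantile normalization and cyclic loess. CCS1, for the copper chaperone of Sod1, differed by -0.06 (limma adjusted p = 0.369), and passed as lower after array centring and quantile normalization.

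Of 16 regulator genes 10 rose and 2 fell, or 7 and 5 after quantile normalization. HAP3 and HAP5, for subunits of the activator of respiratory genes, rose 2.13-fold and 1.54-fold. ADR1, for an activator of peroxisomal genes including CTA1, rose 2.08-fold (log2 difference 1.06, SE 0.09), and CUP2, for the copper-responsive activator, rose 1.54-fold. YAP1, for the main activator of the peroxide response, rose 1.44-fold (log2 difference 0.53, SE 0.07), while SKN7, for its partner, differed by -0.25 (limma adjusted p = 0.0440), a call that ended with spike level as a block. MSN2, for an activator of the general stress response, fell 1.20-fold (log2 difference -0.26, SE 0.05). Its paralog MSN4 differed by -0.22 (limma adjusted p = 0.122) and passed as lower after array centring, quantile normalization and cyclic loess. Transcript levels of these factors do not measure their activity.

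Of the 4 measured metallothionein and old yellow enzyme genes 3 rose, or 1 after array centring. OYE3, for an NADPH oxidoreductase, rose 9.18-fold (log2 difference 3.20, SE 0.15). CUP1-1, whose probe set is shared between transcripts, rose by 0.52, not passing after array centring, and CRS5 rose by 0.25, not passing after any of the other 3 scalings.

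**Figure D4:**
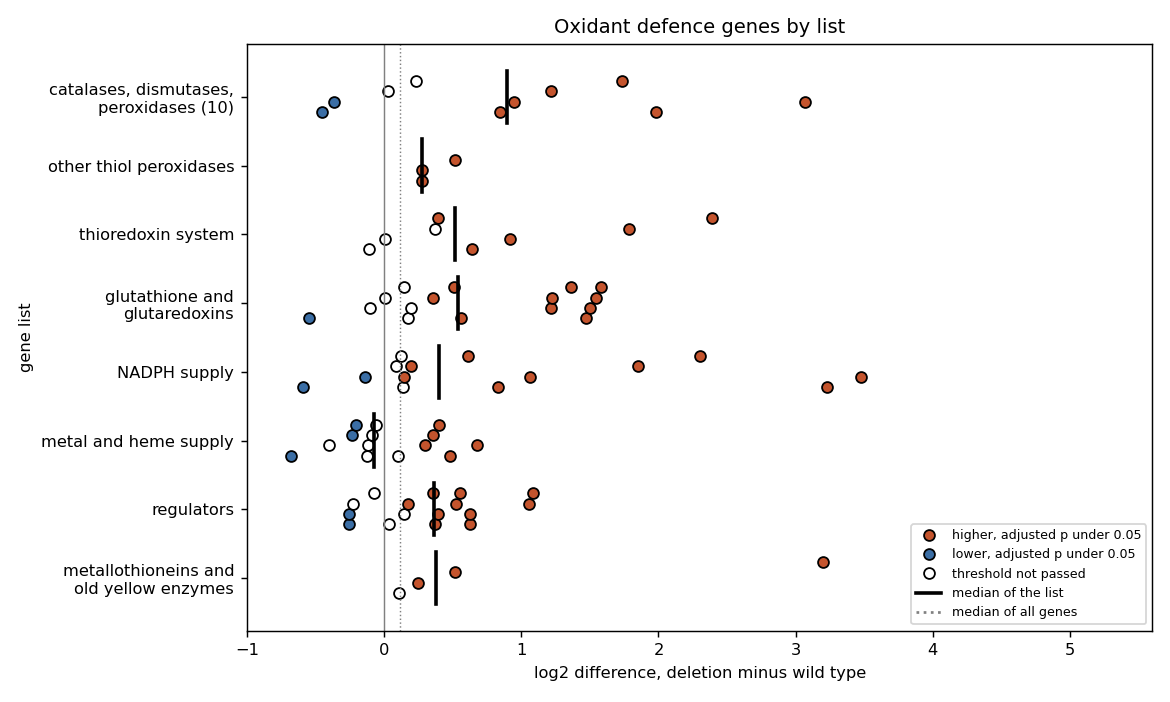
Strain difference (horizontal axis, log2, deletion minus wild type) of every measured gene in the 8 lists, 1 row per list and 1 point per gene. Orange and blue points passed the test as higher and lower, white points did not, black bars are list medians and the dotted line is the median of all genes. The 10 catalase, dismutase and peroxidase genes run from -0.45 to 3.07 and have a median of 0.90.

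Markers of alpha cells, a cells and sporulating cells were read on the same arrays. Over all genes 39.6% were called higher and 19.8% lower, or 24.9% and 35.5% after quantile normalization, so the counts below are a description only. All 4 genes specific to alpha cells were called higher on the deposited values, and 3 after array centring or cyclic loess. After quantile normalization 2 of them were called higher and 1, MF(ALPHA)2, lower. The summed intensity of the 4 genes ran from 1351 to 1524 in wild type and from 3156 to 3434 in the deletion strain, with MF(ALPHA)1 at background in wild type. Among 7 markers of a cells, 1 rose and 1 fell, and their summed intensity overlapped between strains, at 44738 to 54308 and 43411 to 54128. Of 8 sporulation genes 4 rose and 1 fell (3 and 4 after quantile normalization), with sums of 3187 to 3398 and 3871 to 4713. The part of these markers in the antioxidant results was not tested.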

How the data were processed

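Biotin-labelled RNA of 6 samples was read on Affymetrix arrays. The authors deposited 1 intensity per probe set and array on a linear scale, made with affy and RMA in R 2.8.0, per the submitters' processing notes. RMA corrects background, normalizes between arrays and summarises probes, so changes of dim and of very bright genes can be understated. Precision is limited by how many arrays there are.

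The deposited intensities were put on the log2 scale. Of 10928 probe sets, 5498 matched 1 gene of the RefSeq table (assembly R64), 12 with an updated symbol. The brightest probe set by mean stood for each of 5449 genes. The array annotation names no build, so no coordinates are printed, and no sequences are shown. The strain test was limma 3.58.1 under R 4.3.3, with lmFit and eBayes and group as the only term. Groups came from sample titles. No arrays were identical, and arrays of a strain correlated at 0.988 to 0.995 over the genes.

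Members and lists were chosen with earlier results of these data known. Named were the 10 members, BAS1, HYR1, AHP1, DOT5, YAP1, SKN7, MSN2 and MSN4, up to 4 called genes of each list by size, and the 3 genes nearest to CTT1. Genes named outside that rule (TAL1, TKL1, GND1, SOL3, ZWF1, ALD6, GSH1, GSH2, TRX1, TRX2, TRR1, MXR1 and CCS1) were chosen after their values were seen. Alternatives were other scalings, probe set rules, filters, variance models, blocks, thresholds and leaving out each array.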

Additional observations from a re-analysis of the deposited data

How the results depend on the processing

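The 6 called rises and 2 called falls among the antioxidant genes kept direction and call under every scaling, filter, probe set rule, variance model, block, threshold and omitted array tried. The CTA1 difference was -0.36 as deposited and -1.17 after quantile normalization. No alternative had the background level of the arrays as a term. Fits within 1 spike level were added after seeing the data. There 1 fall was called in each set, without GPX2, but with 2 arrays against 1 this says nothing about how stable GPX2 is. With 1 array left out, 8 to 9 of the 10 genes were called, 6 to 7 higher and 2 lower, the ninth being SOD1 without wild-type replicate 2. TSA1 turned to -0.12 after array centring. Over all genes, quantile normalization called 1356 higher and 1935 lower and array centring 1803 lower, against 2160 and 1081 as deposited, moving the percentage of calls that were higher from 66.6% to 41.2% and 45.1%. The threshold of 0.01 left 679 lower, by construction. Low-spike arrays alone called 1593, 1102 higher and 491 lower, and high-spike arrays alone 614 lower, from 2 arrays against 1, the lone array being assumed to vary like the others. With 1 array left out, 2709 to 3020 genes were called, 1847 to 2053 higher and 862 to 979 lower. The pair differences kept their signs under each alternative run for them, but not their sizes. After quantile normalization they were 3.95 for CTT1-CTA1, 1.84 for GPX1-GPX2, 1.07 for PRX1-TSA1, -0.59 for SOD1-SOD2 and -1.40 for TSA1-TSA2. With 1 array left out they ran from 3.33 to 3.55 for CTT1-CTA1, 2.09 to 2.25 for GPX1-GPX2, 1.14 to 1.22 for PRX1-TSA1, -0.76 to -0.69 for SOD1-SOD2 and -2.06 to -1.79 for TSA1-TSA2. Replicate numbers did not pair the samples (correlations of deviations 0.44, -0.51 and -0.44, with 1 of 3 wild-type arrays nearest its own number). With the replicate number as a block 3140 genes were called, 8 of the 10 among them (MXR2, CUP1-1, SKN7, GND1 and SOL3, of the other genes named, were not called), and the exact paired permutation p of each pair difference was 0.25, the smallest possible. The cause of these changes was not tested.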
